A study of Mus musculus with 8 samples.

Results

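Forced expression of Ascl2 in mouse small-intestinal organoids was measured in a dye swap, in which the same comparison is made on 2 arrays with the colours exchanged. The 2 arrays were chosen by their titles, from 8 arrays in the series. On both, organoids labelled Ascl2 transduced were set against organoids of the genotype VillinCreERT2. The transduced organoids had a 16 h pulse of 4OH-tamoxifen, meant to switch on Ascl2 from a CMV promoter, and their RNA was taken 24 h later. The VillinCreERT2 organoids also had a 16 h tamoxifen pulse. They are described by genotype, so effects of transduction or genotype cannot be told apart from those of Ascl2 in this comparison. The name VillinCreERT2 denotes a tamoxifen-activated Cre recombinase driven in the gut epithelium. The RNA of the transduced organoids was in Cy5 on replicate 1 and in Cy3 on replicate 2. For each gene, each array was turned to log2 of transduced over VillinCreERT2 organoids. The reported value is the mean of the 2, called the dye-swap mean. It equals the Cy5 over Cy3 log2 ratio of replicate 1 minus that of replicate 2, divided by 2, and cancels a dye bias shared by both arrays. The remaining 6 arrays of the series also enter the fit. Each array with a condition of its own has its own effect there, so only the dye swap and the self-self arrays inform this comparison. The 2 self-self arrays, which carry 1 control RNA in both colours, give the technical spread. The one in experiment 2 held dsGFP-transduced organoids. The one in experiment 3 is labelled VillinCreERT2 in one field and Ascl2loxp/loxp in another. Both had the tamoxifen pulse. A single array of experiment 2 measured Ascl2-overexpressing organoids against dsGFP-transduced organoids, all after a 16 h pulse. The other 3 arrays hold organoids without Tcf7l2, alone or with Ascl2 overexpression, and organoids without Ascl2.

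Ascl2 belongs to the basic helix-loop-helix (bHLH) family of transcription factors and is made in intestinal stem cells, and its gene is a target of Wnt signalling. Proteins of this family bind DNA in pairs, usually with an E protein, at a short motif called the E-box. Crypt base columnar stem cells carry the receptor Lgr5 and give rise to absorptive enterocytes and to secretory Paneth, goblet, enteroendocrine and tuft cells. Organoids keep this order, with stem and Paneth cells in buds and differentiated cells towards a central cavity. In bulk RNA such as this, fewer cells of a type and less RNA per cell cannot be told apart.

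The gene named in the labels was examined first. The array has 1 Ascl2 probe among those kept, at mm9 chr7:150154439-150154498 on the minus strand, starting at base 400 of the transcript. It is shown because it is the only check of the transduction on these arrays.
Ascl2 probe: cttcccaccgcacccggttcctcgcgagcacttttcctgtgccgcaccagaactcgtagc
This probe was well above background in both colours on both arrays. Its log2 ratio was -0.31 on replicate 1 and 0.12 on replicate 2. The dye-swap mean was -0.10 ± 0.12 (limma standard error), with an adjusted p of 0.823, so the arrays labelled Ascl2 overexpression did not show a higher Ascl2 signal. The labels leave out whether the transduced RNA carries these 60 bases. Every direction below therefore refers to organoids labelled Ascl2-overexpressing, whatever their Ascl2 level. On the other arrays, with the named RNA in Cy5, the Cy5 over Cy3 log2 ratio of this probe was -0.72 for Ascl2 overexpression in experiment 2 and -0.93 for Ascl2 overexpression without Tcf7l2. It was -0.57 without Tcf7l2 alone and -1.07 for Ascl2 null. The self-self arrays read 0.01 in experiment 2 and -0.26 in experiment 3. The ratio was thus below 0 on both arrays of experiment 2 labelled Ascl2 overexpression. Epithelial genes were well above background in all 4 channels of the dye swap: Epcam, Cdh1, Krt8, Cdx2 and Vil1. Of 42 listed genes of fibroblasts, immune cells, endothelium, muscle and nerve, 29 were measured and 17 were well above background in all 4 channels. None of the 29 passed the test in limma. At an unadjusted p under 0.05 there were 1 higher and 1 lower in the muscle and nerve list. There were also 1 lower each in the fibroblast and immune lists and 1 higher in the endothelial list. Over all genes, 6.76% were higher and 8.49% lower at this level. Their median dye-swap mean was -0.01.

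Across the 19057 genes tested, 173 differed between the organoids at an adjusted p under 0.05 (limma, Benjamini-Hochberg over all genes), which is 0.908% of genes. Of these, 69 rose and 104 fell. All 173 lay on the same side of 0 on both arrays. Their dye-swap means ranged in size from 0.71 to 4.06. Over all genes, 55.5% were on the same side on both arrays, and the Pearson correlation of the 2 arrays' ratios was 0.39. It was -0.31 with median centring in place of loess and 0.11 with the scanner's own ratio, so its sign depends on the scaling. This correlation is across genes, which share both RNAs and the array slide and are not independent replicates. The call counts depend on the processing. Leaving out replicate 1 or replicate 2 left 2 and 3 genes, centring each array on its median in place of loess left 0, the scanner's own ratio left 2, and fitting the background model on all spots left 0. Separate cultures are not stated for the 2 replicates, so the p-values reflect array-to-array spread alone, and that spread may be technical.

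**Figure D1:**
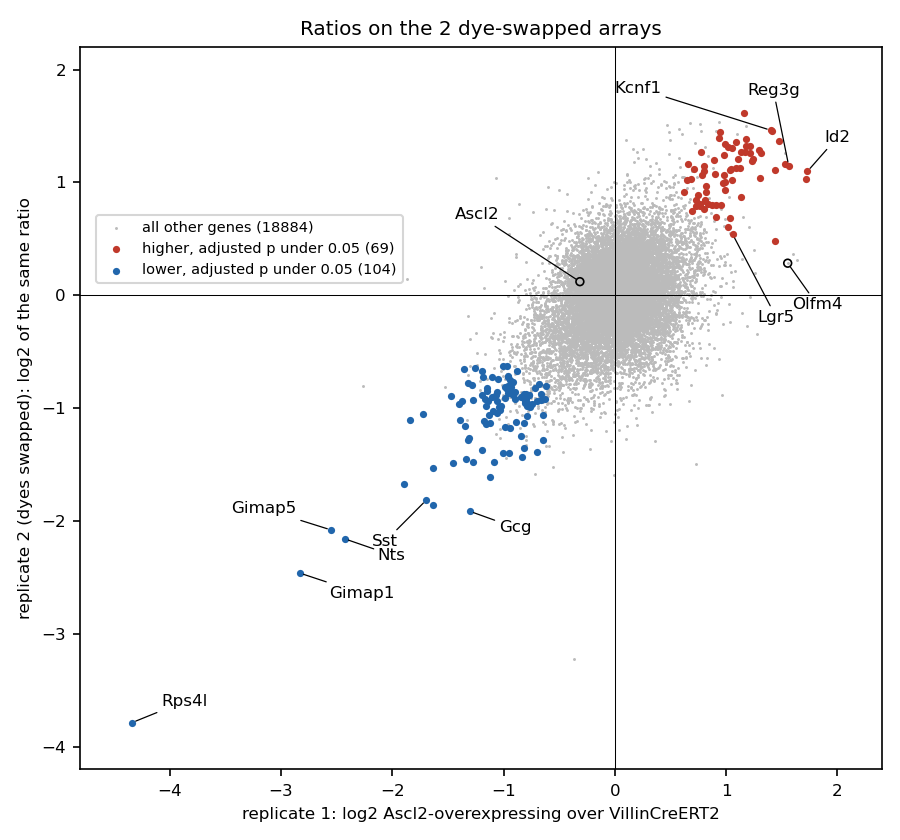
Log2 ratio of Ascl2-overexpressing over VillinCreERT2 organoids on replicate 1 (horizontal) and on the dye-swapped replicate 2 (vertical), 1 point for each of 19057 genes. Red and blue points are the 69 higher and 104 lower genes past the test, open circles are Ascl2 and Olfm4, and all coloured points lie in the 2 quadrants where the arrays have the same sign.

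By size, 121 genes reached 2-fold with both arrays on the same side, 51 higher (0.268% of genes) and 70 lower (0.367%). The difference of the 2 self-self arrays divided by 2 reached 2-fold for 5 genes. These 2 arrays lie on 2 slides with different control RNAs. On each, both colours hold 1 RNA, so their count holds labelling and array noise but no difference between cultures. At a dye-swap mean of 0.5 the counts were 1261 genes for the dye swap and 185 for the self-self arrays. Of the 121 genes, 88 also passed the test. With median centring 113 genes reached 2-fold, 76 of them higher, so the split between higher and lower genes depends on the scaling.

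**Figure D2:**
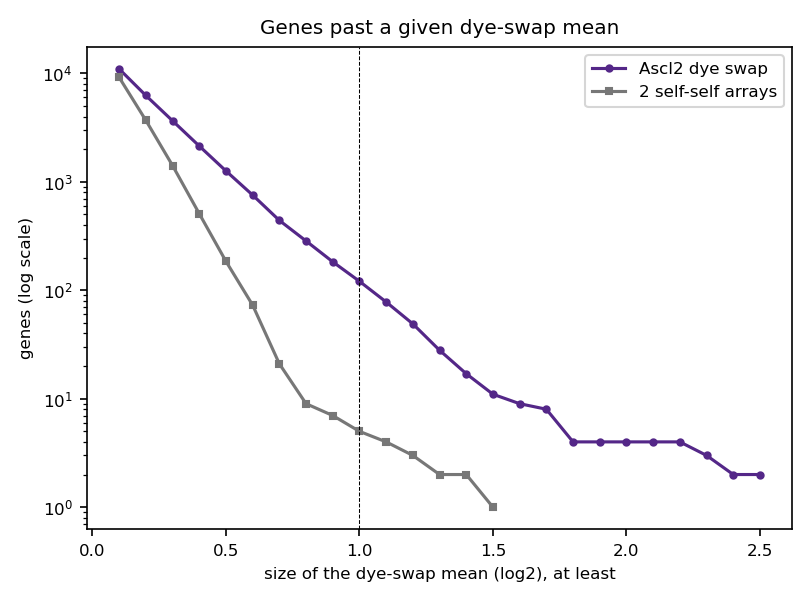
Number of genes (log scale) whose dye-swap mean is at least the size on the horizontal axis (log2). The second curve counts the difference of the 2 self-self arrays divided by 2. At the dashed line, 2-fold, the counts are 121 and 5.

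The gene furthest from 0 was Rps4l, a copy of the ribosomal protein gene Rps4x. It was -4.34 on replicate 1 and -3.79 on replicate 2, and fell to 0.0598 of the VillinCreERT2 level (-4.06 ± 0.16, adjusted p 0.00209). Rps4x itself was 0.54 and 0.16. The genes are close relatives, so what else the Rps4l probe reads is uncertain. Gimap1 and Gimap5, neighbouring GTPase genes known from lymphocytes, followed. Gimap1 was -2.83 and -2.46 on the 2 arrays and fell by 2.65 ± 0.16 (adjusted p 0.0101). Gimap5 was -2.55 and -2.08 and fell by 2.31 ± 0.16 (adjusted p 0.0148), while its second probe gave -0.38. The other measured Gimap genes did not pass: Gimap9 was -0.70 (adjusted p 0.0626), Gimap7 -0.08 and Gimap6 0.03. Beside them, Ptprc, which marks all white blood cells, was -0.04 and was well above background in 1 of 2 channels of each group, and the 11 measured genes of the immune list had a median of -0.04. Tdrd1, a germ cell gene, was not well above background in the Ascl2-overexpressing channel on either array, so only a bound holds: it was at least 3.19-fold lower, with an adjusted p of 0.0148. Such a bound sets the bright group's mean against the lowest signal that counts as above background. Afp, a fetal serum protein, was -1.63 and -1.86, and fell by 1.75 ± 0.13. Kbtbd11 fell by 1.58 ± 0.12, but its other probes gave -0.75 and 0.01. The aquaporin Aqp8 of the gut surface, the sugar transporter family member Slc5a4a, the glutamate transporter Slc1a3, the medium-chain acyl-CoA synthetase Acsm5 and Tmem37 also fell, with dye-swap means between -1.30 and -1.16.

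Among the genes that rose furthest beyond their error, Kcnf1, a potassium channel subunit, was 1.40 on replicate 1 and 1.46 on replicate 2 (1.43 ± 0.11, adjusted p 0.0148). Pthlh, which encodes a parathyroid hormone-related peptide, was 1.48 and 1.37 (1.42 ± 0.11, adjusted p 0.0155). Its second probe gave 1.26. Dmpk, a kinase gene, reached 1.43 ± 0.11, but its other probes gave 0.35 and 0.34. Reg3g, an antibacterial lectin of the gut surface, was 1.56 and 1.15 and rose by 1.35 ± 0.12 (adjusted p 0.0218). It was the only regenerating-family lectin that passed. The remaining 6 were below 0, and Reg3b (-0.74) and Reg3a (-0.68) did not pass. Aqp4, an aquaporin, was 1.13 and 1.27, and its 3 probes ranged from 1.20 to 1.44. Id2, an inhibitor of basic helix-loop-helix proteins that lacks their DNA-binding region, was 1.73 and 1.10 and rose by 1.41 ± 0.19 (adjusted p 0.038). One of its further probes gave 1.48 and the other 0.30. It was the only 1 of 16 measured bHLH family members and partners that passed. Neurog3 (0.63), Bhlha15 (0.51), Hes1 (0.60) and Atoh1 (0.17) did not. Hes1 was 1.21 on replicate 1 but -0.02 on replicate 2, and a second Bhlha15 probe gave 0.13. Angpt2, Agpat4, Msln, Smtnl2, Epdr1, Sorcs2, Vav3 and Slc44a2 rose as well, with dye-swap means from 1.04 to 1.35. These kept their sign under every alternative processing that gave a value, but Angpt2 fell as low as 0.065 and Sorcs2 as low as 0.085. The second Vav3 probe gave 0.17, against 1.04 for the probe used. Klk1b3 and Klk1b4, serine proteases of the kallikrein cluster, rose by 1.28 and 1.27, and Klk1, Klk1b8 and Klk1b26 passed too. This family was singled out after its values were seen. Klk1 and the Klk1b genes are near-identical copies, so their probes may read the same RNA and are not separate evidence. Klk1b21 (0.37), Klk1b9 (-0.00) and Klk1b24 (-0.08) did not pass. The 17 measured kallikrein-named genes, which include others outside this group, had a median of 0.00.

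**Figure D3:**
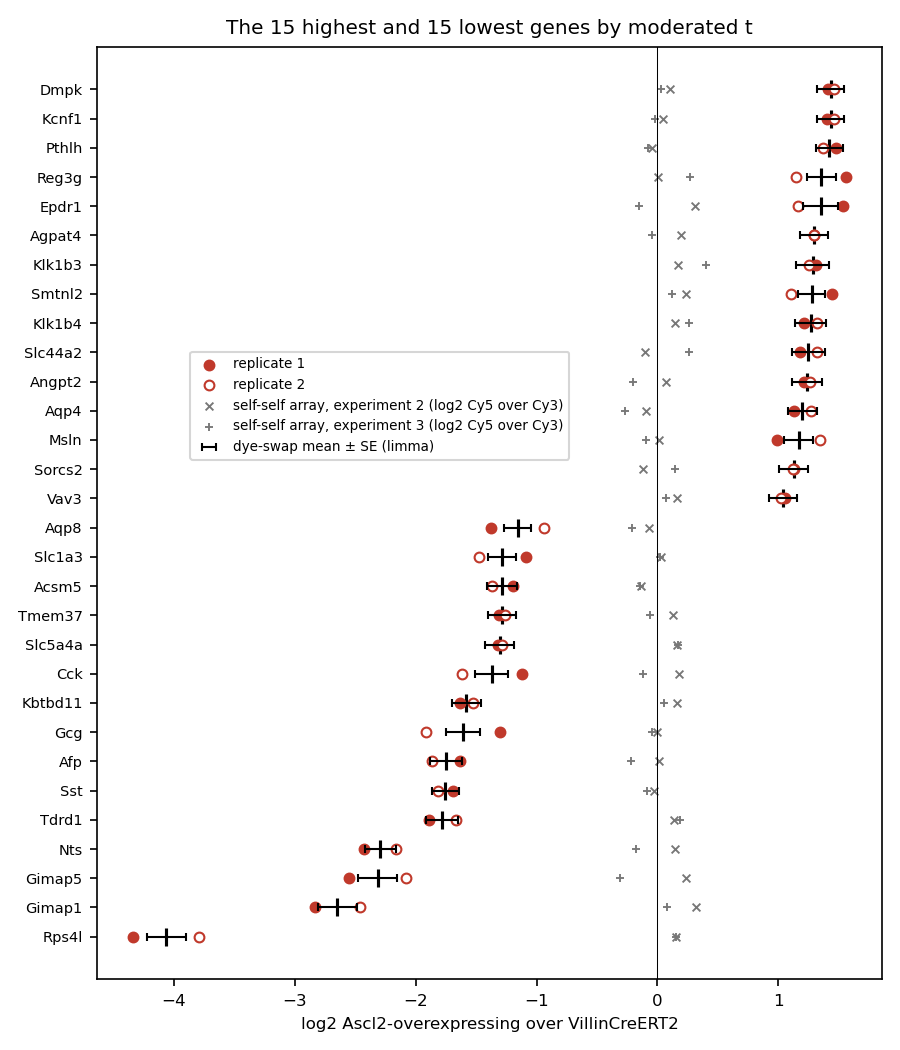
The 15 highest and 15 lowest genes by moderated t, with the log2 ratio of Ascl2-overexpressing over VillinCreERT2 organoids on each array (filled and open circles), the dye-swap mean with its limma standard error (black), and the log2 Cy5 over Cy3 ratio on the 2 self-self arrays (grey). In every row both array values lie further from 0 than both self-self values.

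Stem cell genes were mostly higher. Of 26 genes listed for crypt base columnar stem cells, 25 were measured, 21 were above 0 and 20 were above 0 on both arrays. Over all genes, 49.5% were above 0 and 27.5% were above 0 on both. The median of the list was 0.49 (0.56 on replicate 1 and 0.28 on replicate 2), against -0.00 for all genes. An unadjusted p under 0.05 was reached by 14 higher and 1 lower gene, against 6.76% and 8.49% of all genes. Aqp4, Rgmb and Lgr5 passed the adjusted test. Lgr5, the receptor for R-spondins that marks these cells, was 1.06 and 0.54 and rose by 0.80 ± 0.11 (adjusted p 0.0421). Rgmb, a co-receptor for bone morphogenetic proteins, was 0.64 and 1.02 and rose by 0.83 ± 0.12 (adjusted p 0.0424). Its other 2 probes gave 0.25 and 0.24. Smoc2 (0.66), Ephb3 (0.79), Cdca7 (0.61), Clca3b (0.98) and Axin2 (0.46) were above 0 on both arrays and did not pass. Olfm4, a secreted stem cell glycoprotein, was 1.55 on replicate 1 but 0.28 on replicate 2 (0.92 ± 0.38, adjusted p 0.332). Its value without replicate 1 was -0.20. Its second probe gave 0.94. On the self-self array of experiment 3 it read -0.98, so its signal also differed between colours that held 1 RNA. Ascl2 itself, Sp5 (-0.43), Msi1 (-0.30) and Znrf3 (-0.28) were below 0.

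Of 16 measured Wnt target genes, 12 were above 0, with a median of 0.26. Apcdd1, a Wnt inhibitor induced by the pathway, was 1.24 and 1.21 and rose by 1.22 ± 0.15 (adjusted p 0.0323). Lgr5 was the other member that passed. The Eph receptors that position crypt cells, Ephb3 (0.79) and Ephb2 (0.69), Ccnd1 (0.56) and Myc (0.25) did not pass. Myc was 0.77 on replicate 1 but -0.28 on replicate 2. Sp5 (-0.43) and Lgr4 (-0.34) were below 0. Tcf7l2, a DNA-binding partner of beta-catenin, was -0.09 and -0.72 (-0.41 ± 0.20, adjusted p 0.408), and its other probes gave 0.08 and 0.15. The 10 genes listed for position 4 and progenitor cells had a median of 0.32, and only Cck, which fell, passed. Fgfbp1 was 0.95 and Sox4 0.84 without passing. In the Notch pathway 20 of 25 measured genes were above 0, with a median of 0.15 and none past the adjusted test. At an unadjusted p under 0.05 there were 8 higher and 1 lower, against 6.76% and 8.49% of all genes. The highest members of this list were the Notch target Hes5 (0.83 and 0.81, adjusted p 0.0537), the glycosyltransferase Lfng (0.73) and Hes6 (0.73).

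Enteroendocrine hormone genes held some of the largest falls. These encode the peptides that gut endocrine cells release into blood or tissue. Of 15 measured, 13 were below 0 on both arrays (28% of all genes were), and 5 fell. Nts, which encodes neurotensin, was -2.43 on replicate 1 and -2.16 on replicate 2 (-2.29 ± 0.13, adjusted p 0.00987). Sst, which encodes somatostatin, was -1.69 and -1.82 (-1.75 ± 0.11, adjusted p 0.0117). Gcg, the source of glucagon-like peptides in the gut, was -1.30 and -1.91 (-1.61 ± 0.14, adjusted p 0.0218). Cck, which encodes cholecystokinin, was -1.12 and -1.62 (-1.37 ± 0.14, adjusted p 0.0263). Gip, which encodes an incretin, was -1.06 and -1.04 (-1.05 ± 0.12, adjusted p 0.0298). Sct (-0.95), Ghrl (-0.33) and Tph1 (-0.34), which makes serotonin, did not pass. The list's median was -0.37. The levels of the 5 that fell were 0.204 (Nts), 0.296 (Sst), 0.328 (Gcg), 0.387 (Cck) and 0.483 (Gip) of the VillinCreERT2 level.

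The transcription factors that specify these cells lay on both sides of 0. Of 19 measured, 11 were above 0 and the median was 0.08. Neurog3, which starts the lineage, was 0.26 and 0.99 (0.63 ± 0.18, adjusted p 0.168). Foxa2 (0.57), Pax4 (0.41) and Insm1 (0.38) were above 0 and Isl1 (-0.38) below, and these did not pass. Among 21 measured genes of secretory granules and prohormone processing the median was -0.16, and Pcsk1, a convertase that cuts prohormones, fell (-0.90 and -0.92, adjusted p 0.038). A second Pcsk1 probe gave -0.38. Chga, a granule protein and general endocrine marker, was -0.80 and -0.37 (-0.59 ± 0.11, adjusted p 0.0754).

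The 250 bases before the annotated start of 4 of these hormone genes and of 2 genes that rose, Id2 and Reg3g, are shown because E-boxes are the sites that factors of this family bind. They are RefSeq sequences of the build GRCm38.p6, and capitals mark each CANNTG, a motif that reads the same on both strands.
Id2 (chr12:25096093-25096342, minus strand): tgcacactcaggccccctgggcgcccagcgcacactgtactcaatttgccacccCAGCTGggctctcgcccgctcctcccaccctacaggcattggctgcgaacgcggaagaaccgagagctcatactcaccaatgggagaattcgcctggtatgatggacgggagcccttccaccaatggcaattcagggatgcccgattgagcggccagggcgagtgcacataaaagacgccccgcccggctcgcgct
Reg3g (chr6:78468875-78469124, minus strand): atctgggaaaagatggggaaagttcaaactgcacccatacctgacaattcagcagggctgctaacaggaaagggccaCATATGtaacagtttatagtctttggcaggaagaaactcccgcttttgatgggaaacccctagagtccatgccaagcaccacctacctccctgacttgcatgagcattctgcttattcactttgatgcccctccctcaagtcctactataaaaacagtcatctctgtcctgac
Nts (chr10:102490419-102490668, minus strand): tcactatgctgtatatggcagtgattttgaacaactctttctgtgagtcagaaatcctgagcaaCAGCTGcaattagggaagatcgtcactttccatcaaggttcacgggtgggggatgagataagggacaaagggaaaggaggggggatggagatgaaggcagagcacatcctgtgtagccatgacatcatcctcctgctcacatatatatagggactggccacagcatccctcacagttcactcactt
Sst (chr16:23890845-23891094, minus strand): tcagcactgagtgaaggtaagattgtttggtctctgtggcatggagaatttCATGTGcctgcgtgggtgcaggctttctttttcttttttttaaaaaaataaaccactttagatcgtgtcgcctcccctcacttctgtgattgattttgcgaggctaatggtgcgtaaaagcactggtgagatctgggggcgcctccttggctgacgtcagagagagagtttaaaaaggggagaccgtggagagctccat
Gcg (chr2:62483654-62483903, minus strand): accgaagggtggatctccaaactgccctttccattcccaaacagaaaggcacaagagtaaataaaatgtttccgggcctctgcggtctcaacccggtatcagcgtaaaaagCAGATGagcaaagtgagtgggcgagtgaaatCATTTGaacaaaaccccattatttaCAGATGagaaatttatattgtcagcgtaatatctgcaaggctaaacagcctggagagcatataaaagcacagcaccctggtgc
Cck (chr9:121495695-121495944, minus strand): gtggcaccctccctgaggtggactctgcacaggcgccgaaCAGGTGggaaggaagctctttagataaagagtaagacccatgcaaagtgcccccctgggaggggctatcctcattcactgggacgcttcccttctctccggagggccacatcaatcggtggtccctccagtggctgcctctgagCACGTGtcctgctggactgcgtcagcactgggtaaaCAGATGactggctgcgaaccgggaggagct
Nts and Id2 hold the form CAGCTG. Any E-box of the form CANNTG was found in 34 of 48 promoters of genes that rose and 50 of 76 of genes that fell, taking the first listed start of each. Over all 12218 tested genes with such a promoter 59.4% held it, and over all 32851 promoters 66.2%. CAGCTG was in 10 of the 48 and 13 of the 76, against 11.9% of the tested genes' promoters. A match is a description of the sequence and shows no binding.

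Genes of absorptive enterocytes were lower almost throughout. Of 17 measured brush border hydrolases, which digest sugars and peptides at the cell surface, 15 were below 0 on both arrays, with a median of -0.60 (-0.47 on replicate 1 and -0.74 on replicate 2). An unadjusted p under 0.05 was reached by 14 of them, all lower, against 8.49% of all genes. Dpep1, a dipeptidase, was -0.99 and -0.82 and fell by 0.90 ± 0.13 (adjusted p 0.0421). Treh, which splits trehalose, was -0.62 and -0.80 and fell by 0.71 ± 0.11 (adjusted p 0.0493). Alpi (-0.69), Sis (-0.63), Anpep (-0.85) and Enpep (-0.96) did not pass. Enpep read -0.85 on the self-self array of experiment 3. Of 22 genes for uptake and export of dietary fat, 20 were below 0 on both arrays, with a median of -0.56. Fabp1, a fatty acid carrier, was -0.84 and -1.43 and fell by 1.13 ± 0.12 (adjusted p 0.0298). Mogat2, which rebuilds triglyceride, was -0.99 and -1.17 and fell by 1.08 ± 0.12 (adjusted p 0.0298). Apoc2, Fabp2 and Dgat2 fell too, by 0.82, 0.77 and 0.77. Apob, the structural protein of chylomicrons, was -1.53 and -0.82 without passing (adjusted p 0.0946), and its 5 probes ranged from -1.17 to -0.42.

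Nutrient transporters had a median of -0.57, with 20 of 25 measured below 0 on both arrays. Slc15a1, which imports small peptides, was -1.09 and -1.03 and fell by 1.06 ± 0.12 (adjusted p 0.0298). Slc46a1, the folate transporter, fell by 0.94 ± 0.14 (adjusted p 0.0453), as did Slc28a3 (-0.90), Slc5a11 (-0.88) and the fructose transporter Slc2a5 (-0.87). Slc1a1 was at the other end, 0.86, and did not pass. Among 32 other enterocyte genes, such as drug-metabolising cytochromes and esterases, 31 were below 0 and the median was -0.58. Rbp2, a retinol carrier, was -0.76 and -0.97 and was the only one that passed (-0.87 ± 0.11, adjusted p 0.0343). Cyp3a11 was -0.98 and -1.45 (adjusted p 0.118). On the self-self array of experiment 3 it read -0.96. Hnf4a, a regulator of enterocyte genes, was 0.11. Of 34 genes of fatty acid oxidation and PPAR targets, 27 were below 0, with a median of -0.16. There, Fabp1 and the mitochondrial coactivator Ppargc1a (-1.04 and -0.99, adjusted p 0.0298) fell.

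**Figure D4:**
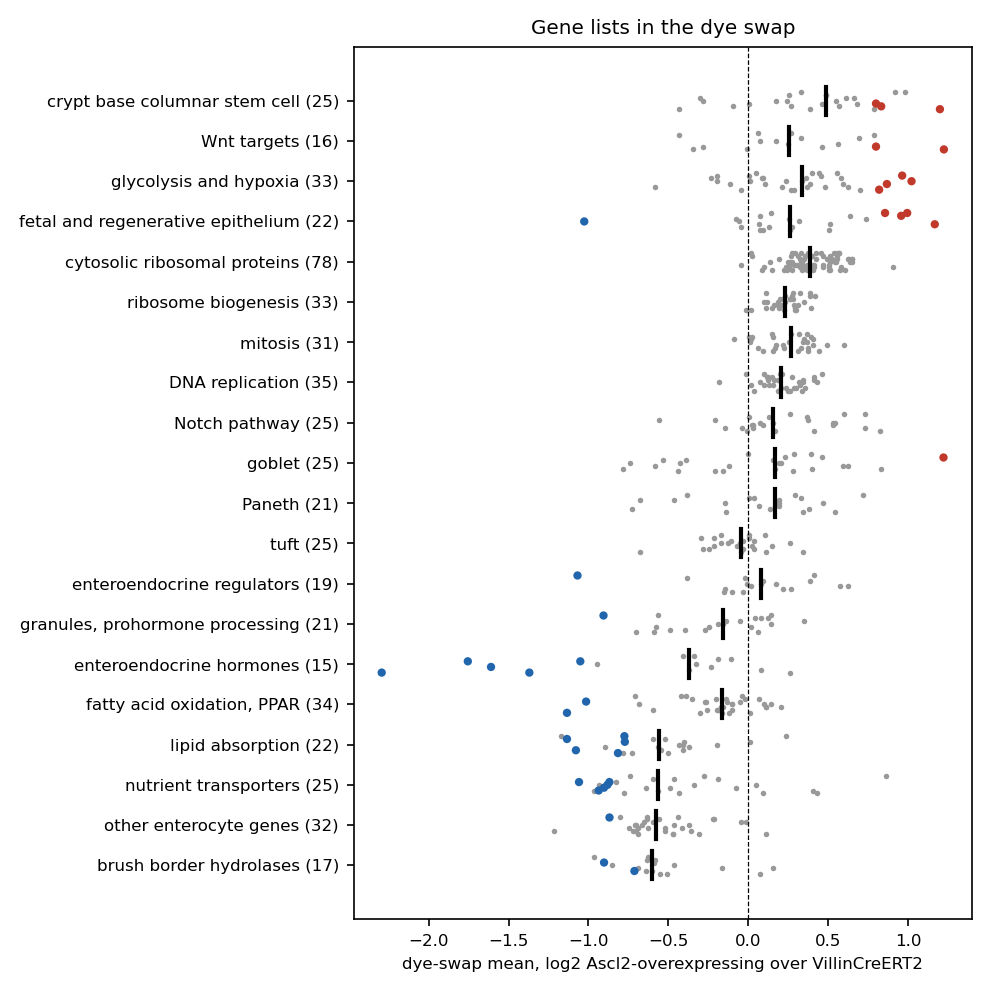
Dye-swap mean (log2 Ascl2-overexpressing over VillinCreERT2) of every measured member of 20 gene lists, with the number measured in brackets. Red and blue points passed the test, black bars are list medians, and the dashed line is the median of all genes. The 4 absorptive lists at the bottom have medians from -0.60 to -0.56 and the stem cell list at the top 0.49.

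Several smaller sets had members past the test. Of 33 genes of glycolysis and the response to low oxygen, 27 were above 0, with a median of 0.34, and 4 rose. Ankrd37 was 0.78 and 1.27 (1.02 ± 0.14, adjusted p 0.0421) and the collagen hydroxylase P4ha2 was 0.99 and 0.93 (0.96 ± 0.12, adjusted p 0.0323). The oxygen sensor Egln3 (0.87) and the glycolytic regulator Pfkfb3 (0.82) rose too, but the other Pfkfb3 probes gave 0.15 and 0.10. Vegfa (0.08) and Ldha (-0.12) did not pass. Of 22 measured genes of fetal or regenerating epithelium, 18 were above 0 (median 0.26). Msln, Clu, Krt18 and Krt7 rose, and Areg, an EGF receptor ligand, fell (-1.03 and -1.02, adjusted p 0.0483). Clu, a secreted chaperone, was 0.99 and 1.00 (0.99 ± 0.12, adjusted p 0.0323), but the authors' deposited table gave -0.09. That table differs from the scanner's ratio at this spot, and Clu, Msln, Krt18 and Krt7 had no value once such spots were left out. Krt18, a keratin of simple epithelia, was 1.44 and 0.48 (0.96 ± 0.11, adjusted p 0.0303). Its partner Krt8 (0.75) and Krt19 (0.64) did not pass, nor did Krt20 (-0.70), a keratin of differentiated cells.

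The secretory cell lists were divided. Goblet cell genes had a median of 0.17 over 25 measured, with 14 above 0, and only Klk1 passed. Its probe may also read the related kallikrein genes named above. Foxa3, a regulator of these cells, was 0.83. The mucin Muc2 was -0.57 and -0.31, and its second probe gave -0.02. Zg16 (-0.74) and Muc3 (-0.79) were lower still without passing, and a second Muc3 probe gave -0.22. Paneth cell genes had a median of 0.16 over 21 measured and none passed (5 higher and 4 lower at an unadjusted p under 0.05). The Wnt ligand Wnt3 was 0.72, Ang4 0.54 and the lysozyme Lyz1 0.19. Tuft cell genes had a median of -0.05 over 25, and Dclk1 was -0.30 (adjusted p 0.355). None of them passed, with 1 higher and 1 lower at an unadjusted p under 0.05. Over all genes the shares at this level were 6.76% higher and 8.49% lower.

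Genes of growth were shifted up by small amounts, none past the adjusted test. Of 78 cytosolic ribosomal protein genes, 77 were above 0 and 59 were so on both arrays, with a median of 0.39. The shift was 0.64 on replicate 1 and 0.18 on replicate 2. An unadjusted p under 0.05 was reached by 49, all higher. Over all genes, 6.76% were higher and 8.49% lower at this level. Rps26 was 1.20 and 0.61 (0.90 ± 0.16, adjusted p 0.0629), and Rpl37, Rps15 and Rps21 were each 0.65. Ribosomal protein genes have many processed copies, which their probes may also read. Ribosome biogenesis genes had a median of 0.23, with 32 of 33 above 0 (5 at an unadjusted p under 0.05), and translation factors 0.22, with 26 of 28 above 0 (7 at an unadjusted p under 0.05). DNA replication genes had a median of 0.21, with 33 of 35 above 0 (11 at an unadjusted p under 0.05). Pold1 reached 0.46 and Pcna 0.07. Mitosis genes had a median of 0.26, with 30 of 31 above 0 (10 at an unadjusted p under 0.05). Ube2c was 0.60, and Mki67, the usual proliferation marker, was 0.45 on replicate 1 and 0.08 on replicate 2.

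Of the remaining lists, antigen presentation had a median of -0.19 over 19 measured genes, and 2 fell. These were the immunoproteasome subunit Psmb8 (-1.47 and -0.89, adjusted p 0.0323; second probe -1.27) and the class I molecule H2-K1 (-0.84 and -0.90, adjusted p 0.0345). H2-K1 has near-identical relatives that its probes may also read. Interferon-response genes had a median of -0.17, with none past the test (1 higher and 9 lower at an unadjusted p under 0.05). Medians lay between -0.10 and 0.05 for stress response, p53 target, cholesterol synthesis, respiratory chain, claudin and junction, microvillus, snoRNA host, nuclear noncoding and other gut epithelium genes. None of these genes passed the adjusted test. At an unadjusted p under 0.05 each of these lists held from 0 to 5 higher and from 0 to 4 lower genes. The shares over all genes were 6.76% higher and 8.49% lower. The transcription factor Cebpb of the stress response list was -0.91 (adjusted p 0.0532), and its second probe gave -0.35. The nuclear RNAs Malat1 (-1.03, adjusted p 0.0532) and Neat1 (-0.85, adjusted p 0.0533) did not pass either, and 1 of 4 Malat1 probes gave 0.08.

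A second array labelled Ascl2 overexpression without a further mutation, in experiment 2, had dsGFP-transduced organoids as its control and a slide and scan of its own. Its values were adjusted for the dye bias estimated from the self-self arrays and the dye swap. Ascl2 itself was -0.54 there after this adjustment, against the label, and -0.10 in experiment 1. What the experiments differ in cannot be told apart from any difference in response. Across all genes, which are not independent replicates, the values of experiments 2 and 1 had a Pearson correlation of 0.09, and 53.4% of genes were on the same side. Of the 173 genes, 103 (59.5%) were on the same side in experiment 2. In the test of the difference, experiment 2 minus experiment 1, 143 genes passed, 96 higher (0.504% of genes) and 47 lower (0.247%) in experiment 2. Only technical spread stands behind this test, since experiment 2 is 1 array, and without replicate 1 of experiment 1 it called 20 genes. Of the 173 genes, 45 were among the 143.

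Hormone genes were among those furthest apart. Gcg was 3.84 in experiment 2 and -1.61 in experiment 1 (difference 5.44, adjusted p 0.00158). Gip was 3.80 and -1.05, Sst 3.04 and -1.75, and Cck 3.02 and -1.37, in experiments 2 and 1. Kbtbd11 (5.25), Gas6 (5.11) and Khdrbs3 (4.94) had differences of like size. On the other side, Rgcc was -4.71 in experiment 2 and -0.01 in experiment 1, and Cbx6, Mptx1 and C4bp had differences of -3.61, -3.35 and -3.09. Lgr5 was -2.10 in experiment 2 and 0.80 in experiment 1 (difference -2.90, adjusted p 0.00498). The stem cell list had medians of -0.47 and 0.49 in experiments 2 and 1, and the Paneth cell list -1.12 and 0.16. Within these lists 2 stem cell and 4 Paneth cell genes passed the test of the difference. In the same order, hormone genes had medians of 0.08 and -0.37 (6 passed) and nutrient transporters 0.15 and -0.57 (5 passed). Glycolysis and low-oxygen genes had -0.46 and 0.34 (3 passed). Medians kept their sign for brush border hydrolases (-0.17 and -0.60), lipid absorption (-0.23 and -0.56) and other enterocyte genes (-0.35 and -0.58). Rps4l was 0.20 in experiment 2 and -4.06 in experiment 1 (difference 4.26, adjusted p 0.00406). Other genes had close values in both. Reg3g was 1.36 and 1.35, Aqp4 1.58 and 1.20, Krt18 1.04 and 0.96, and Aqp8 -1.46 and -1.16, in experiments 2 and 1. Their differences did not pass, which does not show that they are alike.

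**Figure D5:**
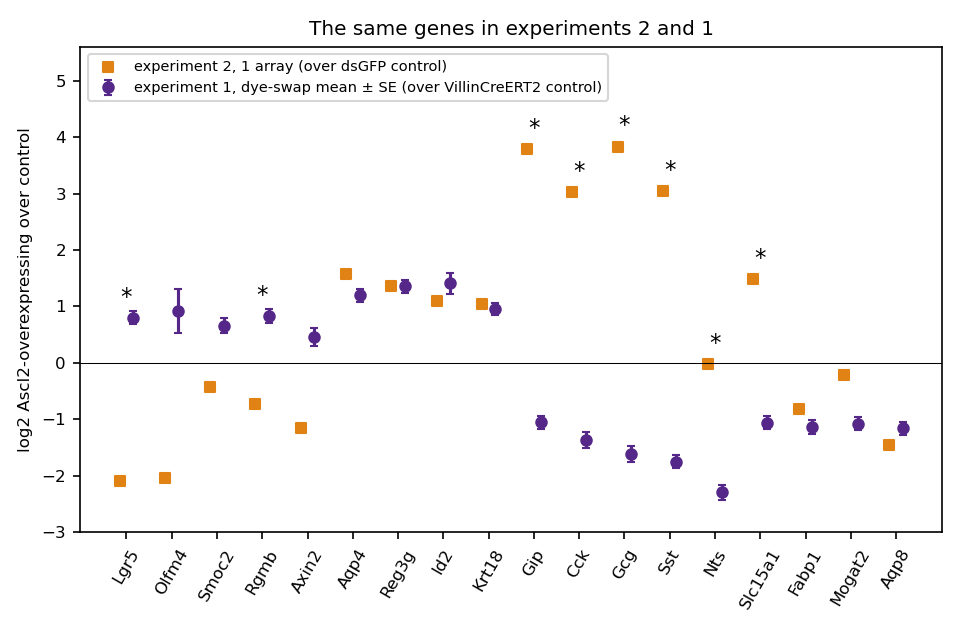
Log2 ratio of Ascl2-overexpressing organoids over control for 18 genes, in experiment 2 (squares, 1 array, no error) and experiment 1 (circles, dye-swap mean ± limma standard error). Stars mark genes whose difference passed the test. The hormone genes Gip, Cck, Gcg and Sst lie above 3 in experiment 2 and below -1 in experiment 1.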

How the data were processed

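Agilent 2-colour arrays measured RNA of mouse small-intestinal organoids. Per the file headers, the authors scanned and quantified the arrays with Feature Extraction 10.5.1.1, and the deposited intensities are median spot and background signals on a linear scale. The deposited log10 ratio of red over green, per the file headers, and the authors' deposited log2 value table served as alternatives. The genome build behind probe coordinates is mm9. Median signals were background-corrected by normexp with an offset of 50, without spots of non-uniform background, and normalised by loess within each array, which centres genes near 0. Control and outlier spots were left out. Probes well above background in a channel on at least 2 arrays were kept (27618 of 41174), and the brightest stood for each gene. Log2 ratios were fitted with limma 3.58.1 in R 4.3.3 (with the data.table package, version 1.17.8) over all 8 arrays, with a dye term shared by all and an effect for each condition, leaving 2 residual degrees of freedom. Tests were two-sided, with Benjamini-Hochberg adjustment over 19057 genes and a threshold of 0.05. The same 173 genes passed with the dye swap and the self-self arrays alone. The fit was tested on simulated data. The number of arrays limits the precision. Both arrays of the dye swap lie on 1 slide, and each experiment has a slide of its own.

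The members and lists were chosen with earlier results of these data known. Genes named are the 15 highest and 15 lowest by moderated t, the 4 largest of each list with both arrays on the same side, the targeted genes, 10 markers, and the 5 largest differences between experiments each way. Further list members, families and neighbours of these were named after their values were seen. Alternatives changed the background correction, normalisation, dim-probe filter, probe rule, dye term, arrays in the fit and the source of the ratios. The result of 1 list member is not reported here.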

Additional observations from a re-analysis of the deposited data

Results flagged for a closer look

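The log2 ratio of organoids labelled Ascl2-overexpressing over control differed between experiment 2 and experiment 1 for 143 genes, by the limma test of the difference itself (adjusted p under 0.05). The Ascl2 probe itself was -0.54 in experiment 2 and -0.10 in experiment 1. Among the genes chosen by the naming rule, which are not all list members that passed, the log2 difference, experiment 2 minus experiment 1, was above 0 for Gcg (5.44), Kbtbd11 (5.25), Gas6 (5.11), Khdrbs3 (4.94), Gip (4.85), Sst (4.8), Cck (4.39), Rps4l (4.26), Gimap1 (3.39), Gimap5 (3), Psmb8 (2.94), Afp (2.8), Slc15a1 (2.54), Slc1a3 (2.4), Nts (2.28), Alox5 (2.23), Tdrd1 (2.18), Tmem37 (1.97) and Agpat4 (1.87). It was below 0 for Dmpk (-1.46), Rgmb (-1.56), Vav3 (-1.63), Pthlh (-1.66), Pax4 (-1.78), P4ha2 (-1.9), Smtnl2 (-2.03), Bhlha15 (-2.26), Ang4 (-2.56), Epdr1 (-2.66), Lgr5 (-2.9), C4bp (-3.09), Mptx1 (-3.35), Cbx6 (-3.61) and Rgcc (-4.7). Experiment 2 is 1 array with another control RNA, slide and scan, so experiment and batch cannot be told apart. Without replicate 1 of experiment 1, 20 genes passed. A fit with a dye term for each slide leaves 0 residual degrees of freedom and gives no test.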

How the results depend on the processing

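The number of genes past the test, 173, was 51 with plain background subtraction, 49 with no background correction, 0 with median centring, 2 with the scanner's ratio, 78 with the authors' deposited table, 269 with no filter on dim probes, 553 with no dye term and 1050 with the 2 arrays alone. Left-out replicates gave 2 to 3. With 2 alternatives chosen after seeing the data it was 0 (normexp fitted on all spots) and 73 (the authors' deposited table without the spots that differ from the scanner's ratio). Of these 73 genes, 0 were higher. Leaving out those spots left 100 of the 173 genes measured, against 158 in the full deposited table. Genes without a value there cannot be counted either way. The settings used leave spots of non-uniform background out of the normexp fit. That choice too was made knowing these data, since a few very bright spots otherwise decided the fit. At an unadjusted p under 0.05 limma called 917 genes with median centring and 1462 with normexp fitted on all spots. The count at 2-fold, 121, was 359 with the scanner's ratio, 190 with the authors' deposited table (60 of them higher), 33 with normexp fitted on all spots and 176 to 440 without 1 replicate. With the deposited table less those spots it was 143, 13 of them higher. The count of differences between experiments, 143, was 0 with median centring, 315 with no dye term, 76 with normexp fitted on all spots and 20 to 140 without 1 replicate. The number of lists with a median above 0 was 19 to 21 without 1 replicate.

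Some of the named genes changed sign. One of them, Clu, had passed the test. It was 0.99 with the settings used and -0.09 in the authors' deposited table. Of all 173 genes past the test, 158 had a value in that table, and 154 of those kept their sign. Clu had no value once the spots that differ from the scanner's ratio were left out. Its sign was kept in 13 of the 14 alternatives that gave a value. The 15 highest genes by moderated t, Lgr5, Id2 and Apcdd1 likewise had no value without those spots. They kept their sign in the 14 alternatives that gave one. Among the 15 highest genes the smallest value in any alternative ran from 0.065 (Angpt2) to 0.72 (Klk1b4). Most of the 15 lowest genes had a value without those spots. Their value nearest 0 ran from -2.34 (Rps4l) to -0.53 (Slc1a3). Without background correction Col3a1 was -0.0155 and Elavl4 0.0036. With median centring Ascl2 was 0.0587 and Rgcc 0.13. With the scanner's ratio Elavl4 was 0.042 and Rgcc 0.04. In the authors' deposited table, with and without those spots, Actg1 was -0.04, Elavl4 0.045 and Rgcc 0.035. Without 1 replicate the values were -0.20 to 2.04 for Olfm4, -0.0436 to 1.34 for Rps21, -0.0042 to 0.16 for Col3a1, -0.21 to 0.84 for Lss, -0.0428 to 0.81 for Jup, -1.82 to 0.22 for Gstm3, -0.23 to 0.61 for Col1a2, -1.36 to 0.0275 for Edem1, -0.38 to 0.0868 for H19, -0.21 to 0.49 for Ctrb1 and -0.0199 to 0.0025 for Rgcc. The cause was not tested. No paired analysis was possible because the 2 replicates are the same comparison with the dyes exchanged, and the other groups hold 1 array each. A fit without 1 replicate assumes that the remaining array varies like the self-self arrays. Signal over background limits dim probes, and 2 residual degrees of freedom limit every standard error.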

Other observations

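On replicate 2, 231 spots had a non-uniform background, and it exceeded 1000 intensity units in 23 of them in Cy3 and 51 in Cy5. With these spots in the normexp fit the median corrected intensity on that array was 2640 in Cy3 and 2925 in Cy5, and without them 106 and 135.

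In the authors' deposited table, 2254 of 27123 spots (8.31%) differed by more than 0.02 log2 from the scanner's ratio on both arrays of the dye swap. At these spots the Pearson correlation of table and scanner was -0.02 on replicate 1 and -0.00 on replicate 2, across spots. For 88.3% of them the pair of table values matched the scanner pair of another such spot within 0.0075, against 13.6% with the sign of replicate 2 turned. The cause was not tested.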
